A study of Mus musculus with 12 samples.

Results

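Genes that escape X inactivation stay expressed from the chromosome that Xist RNA silences, and 10 of them were followed here through the binding of OCT4 and YY1: Ddx3x, Kdm6a, Kdm5c, Eif2s3x, Pbdc1, Mid1, Car5b, Slc25a5, 5530601H04Rik and 1810030O07Rik. The peaks described are those of the allelic tables that lie in, or within 20 kb of, these gene bodies (mm10, RefSeq annotation). There were 27 such peaks of 1217 in all, of which 21 of 1006 were OCT4 peaks and 6 of 211 were YY1 peaks. Every one of the 10 genes was found in the annotation, but 5530601H04Rik had no peak with an allelic ratio and Eif2s3x, Pbdc1, Car5b, Slc25a5 and 1810030O07Rik had OCT4 peaks only. That these genes escape is textbook knowledge, since the files used here hold factor binding and no transcript. Whether each of them escapes in the cells used was not measured, and "escape genes" below is the name of the list. The study itself regards its cell model as poorly suited to work on escape, because the induced Xist silences so efficiently. It does label Ddx3x, Slc25a5 and Eif2s3x as escapees whose chromatin stayed accessible on both alleles. That was seen in a sister line with the inducible Xist on the other X, during neural differentiation, and not in the libraries used here.

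All libraries came from iXist-ChrX-Cast, a single female line of mouse embryonic stem cells (mESCs) that is a hybrid of a Mus musculus domesticus (129S) and a Mus musculus castaneus genome. Xist sits behind a doxycycline-inducible promoter on the castaneus X, which is therefore the chromosome to be inactivated (Xi), and its partner is the active X (Xa). Day 0 cells had no doxycycline and day 6 cells had 1 µg/ml of it, in both cases without differentiation and after removal of feeder cells. Chromatin immunoprecipitation with sequencing (ChIP-seq) was performed for OCT4, the pluripotency factor encoded by Pou5f1, and for YY1, with 2 replicate libraries for each factor and day, 8 with allelic ratios of 12 in all (the other 4 were inputs). The allelic ratio of a peak is Xi/(Xi + Xa), the share of allele-assigned fragments that come from the castaneus chromosome, so that 0.5 is equal occupancy and a fall is loss from Xi relative to Xa. The retained share used below is the mean day 6 ratio as a percentage of the mean day 0 ratio. It is a quotient of allelic ratios and not the share of Xi binding that was kept. Where a ratio fell, it understates the loss of Xi relative to Xa, and more so at peaks with high day 0 ratios. The fragments behind each ratio are not in the tables, so the precision of a single value is unknown. Standard errors (SE) are those of limma, which draws the replicate spread of each peak towards that of all peaks tested with it. An SE can thus be larger or smaller than the peak's own replicates would give. No source used here says that replicates were separate cultures, so p-values measure the spread between libraries only.

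X inactivation begins when Xist RNA spreads in cis and recruits silencing complexes, and most promoters and enhancers of the coated chromosome then lose transcription factors and open chromatin. A small set of genes is expressed from both X chromosomes despite the coat, either in nearly all tissues or in some of them only. YY1 is a zinc finger factor that binds a short core element, often close to transcription starts, and OCT4 binds an octamer element at enhancers and promoters of stem cells.

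Of the 6 YY1 peaks at escape genes, 4 hold the YY1 core AANATGGC, and these are shown because they place the element within those peaks. Each line gives 28 bases of RefSeq GRCm38.p6, the assembly of mm10, read 5′ to 3′ on the strand of the match, with the core in capitals.
Ddx3x, chrX:13280481-13280508, plus strand: ccttcttcacAAGATGGCcaccttgctg
Kdm5c, chrX:152233244-152233271, plus strand: ctgacaaaccAAGATGGCggtggcagcg
Kdm6a, chrX:18164182-18164209, plus strand: ctgtccgcccAAGATGGCgggacagggt
Erdr1, downstream of Mid1, chrX:170010138-170010165, minus strand: cgtgctttaaAACATGGCgctgcaactc
The 3 cores at Ddx3x, Kdm5c and Kdm6a read AAGATGGC. The core centre lies 2 bp from a RefSeq start of Ddx3x and 30 bp from 1 of Kdm5c, but 1620 bp from the nearest start of Kdm6a. The core was found on either strand in 162 of 211 YY1 peaks of the X (76.8%), so its presence in 66.7% of the peaks at escape genes does not set them apart. Among OCT4 peaks, the core was in 2 of 21 at escape genes (9.52%) and in 10.4% of all OCT4 peaks of the X, the 2 being the promoter peaks of Ddx3x and Kdm5c that overlap the YY1 peaks.

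The octamer, searched as ATGCAAAT or ATGCTAAT on both strands, was in 2 of the 21 OCT4 peaks at escape genes (9.52%) and in 203 of all 1006 (20.2%). They are shown because they are the only matches in OCT4 peaks of these genes.
Kdm5c, 10.0 kb downstream, chrX:152289190-152289217, plus strand: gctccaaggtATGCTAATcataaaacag
Kdm5c, same peak, chrX:152289305-152289332, plus strand: ggaacccgctATGCAAATatgctattgt
Mid1, promoter peak, chrX:169880202-169880229, plus strand: tttgtggaatATGCAAATcaattccagt
The Kdm5c peak carried both spellings and had a retained share of 82.4%, and the Mid1 peak had 98.3%. Over the whole X, the median changes of OCT4 peaks with an octamer (-0.153) and without (-0.149) were close to each other.

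Over the whole X, OCT4 fell from Xi at 352 of 1006 peaks (35.0%) and rose at 1 (0.0994%), and YY1 fell at 89 of 211 (42.2%) and rose at 1 (0.474%), in limma tests with Benjamini-Hochberg adjustment over each table. Median replicate differences at day 0 and day 6 were 0.0585 and 0.0677 for OCT4 and 0.0413 and 0.0379 for YY1. The OCT4 calls rest on both day 0 libraries, since 1 and 0 peaks of the 1006 passed when replicate 1 or replicate 2 of day 0 was left out. For YY1, 17 and 0 of the 211 passed without day 0 replicate 1 or 2.

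At escape genes, 3 of 21 OCT4 peaks fell (adjusted limma p under the threshold of 0.05) and 0 rose, against 35.0% that fell over the X. Without day 0 replicate 1, or without day 0 replicate 2, 0 of the 21 passed. At an unadjusted p, 6 of 21 fell, against 50.1% of all OCT4 peaks. Both day 6 values were under both day 0 values at 10 of 21 (73.0% of all), the day 6 mean was lower at 17 of 21 (92.8% of all), and 12 of 21 had a retained share of 80% or more (30.3% of all). The median change was -0.0595 at escape genes and -0.151 over the other 985 OCT4 peaks. Of the 6 YY1 peaks, 0 fell and 0 rose, with 0 at an unadjusted p (55.5% of all fell at that p), and all 6 had a retained share of at least 80%, from 87.2% to 103%, against 45.0% of all YY1 peaks. The mean was lower at day 6 at 5 of the 6 (89.6% of all). Both day 6 values were under both day 0 values at 2 of these 6, where the share over all YY1 peaks was 72.0%. The median YY1 change was -0.0178 at escape genes and -0.101 over all other YY1 peaks.

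**Figure D1:**
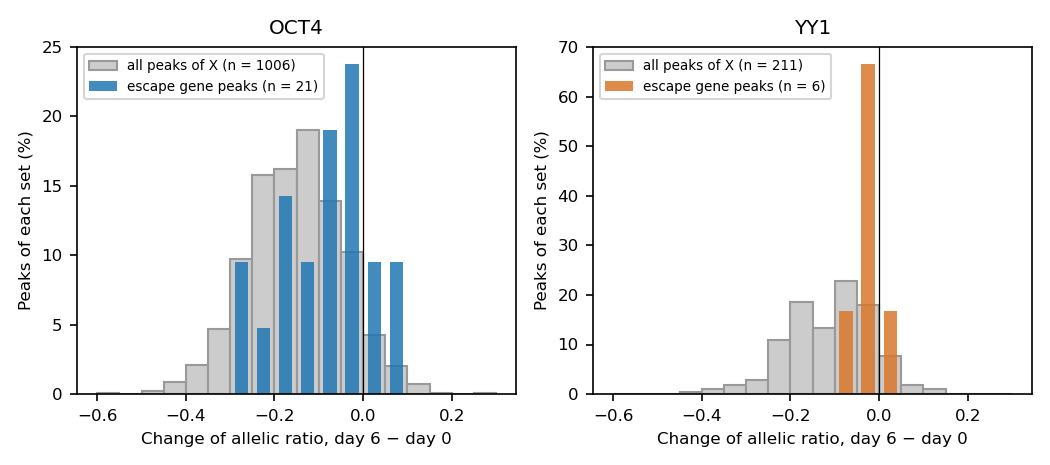
Day 6 minus day 0 allelic ratio at escape gene peaks (coloured bars, 21 OCT4 and 6 YY1) and at all peaks of the X (grey bars, 1006 and 211); the x axis is that change and the y axis the percentage of each set of peaks. Escape gene peaks sit nearer to 0, with medians of -0.0595 for OCT4 and -0.0178 for YY1.

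Escape gene peaks were compared with the rest within each library, as the median ratio of the escape gene peaks minus that of all other peaks. For OCT4 this difference was 0.0285 and 0 in the libraries of day 0, and at day 6 it was 0.0748 and 0.111. For YY1 it was 0.0428 and 0.0417 at day 0, then 0.132 and 0.119 at day 6. The days did not overlap for either factor, and the difference grew by 0.0787 for OCT4 and by 0.0832 for YY1. An exact permutation test of 2 libraries against 2 gave p = 0.333 (two-sided) for each, which is the smallest p this design can give, so the rise cannot pass a threshold here. Without Mid1 the values were 0.0807 and 0.0873.

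Without Mid1 the OCT4 picture was less even. The 5 OCT4 peaks of Mid1 were all above the 80% retained share, so 7 of the other 16 peaks were (30.3% of all). Of these 16, 3 fell (35.0% of all) and 10 had both day 6 values under both day 0 values (73.0% of all). The median OCT4 change of these 16 was -0.106. The 95% limma interval of the change lay wholly above the median change of the table at 5 of 21 OCT4 peaks (7.55% of all), and 3 of these 5 were at Mid1. Among YY1 peaks this held at 3 of 6 (10.4% of all), at Kdm6a and at both peaks of the Mid1 window.

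The peaks at escape genes also differed in kind from other peaks. Promoter peaks, those within 500 bp of any RefSeq transcription start, were 9 of 21 OCT4 peaks at escape genes (42.9%) and 17.9% of all OCT4 peaks. The median width was 707 bp against 491.5 bp over all OCT4 peaks, and the median GC content was 55.3% against 45.2%. For YY1, 4 of 6 were promoter peaks (66.7%), against 38.4% of all.

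**Figure D2:**
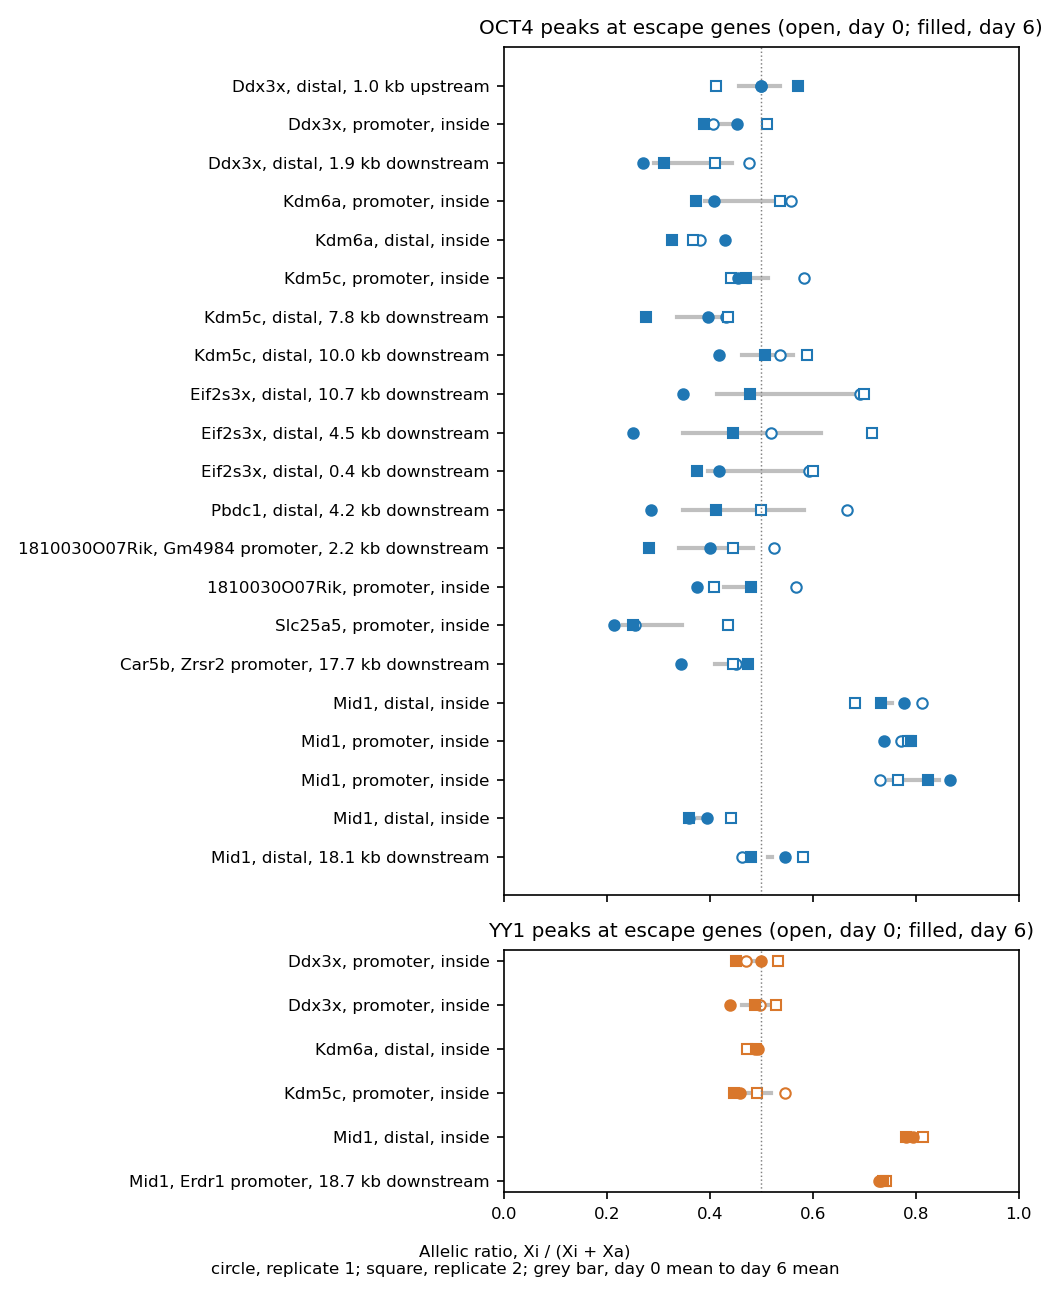
Allelic ratio (x axis, Xi as a share of Xi + Xa) of every OCT4 and YY1 peak at escape genes, 1 row per peak, named by gene, kind and distance from the gene body. Open symbols are day 0 and filled symbols day 6, circles replicate 1 and squares replicate 2, and the grey bar joins the means of the days. The longest bars are those of 2 Eif2s3x peaks, and 3 OCT4 and both YY1 peaks of the Mid1 window lie between 0.681 and 0.867 on both days.

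Ddx3x encodes an RNA helicase that acts in translation initiation and has a Y-linked partner. Its OCT4 promoter peak (chrX:13280346-13281751, in the 5′ UTR) had ratios of 0.406 and 0.511 at day 0, then 0.452 and 0.388 at day 6. The days overlapped, and the change of -0.0384 ± 0.0619 (SE) did not pass the test (adjusted p = 0.627, limma). Both YY1 peaks overlap this promoter. The YY1 peak in the 5′ UTR (chrX:13280369-13280674) had 0.470 and 0.533 at day 0, then 0.500 and 0.450 at day 6, and again the days overlapped. The other YY1 peak, in an intron near the start (chrX:13281094-13282035), had 0.497 and 0.528, then 0.440 and 0.487, with both day 6 values lower. Its change of -0.0489 ± 0.0350 (adjusted p = 0.30, limma) has a 95% interval from -0.135 to 0.0376, so neither no change nor a fall of the size usual for YY1 peaks lies outside it.

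The other 2 OCT4 peaks of Ddx3x lie a short way outside the gene, and their values differed. The peak 1.0 kb upstream (chrX:13279133-13279457) had 0.500 and 0.412 at day 0, then 0.500 and 0.571 at day 6, a retained share of 118%. The peak 1.9 kb downstream (chrX:13295934-13296835) had 0.477 and 0.409, then 0.271 and 0.311. The latter days did not overlap, and its retained share was 65.8% (change -0.152 ± 0.0567, adjusted p = 0.0708, limma; unadjusted p = 0.0309).

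Eif2s3x encodes the gamma subunit of the initiation factor eIF2, which brings the initiator tRNA to the ribosome. No YY1 peak with a ratio lay within 20 kb of it. Its 3 OCT4 peaks are intergenic and downstream of the gene, at 0.4, 4.5 and 10.7 kb. The nearest (chrX:94187886-94188316) had 0.592 and 0.60 at day 0, then 0.419 and 0.375 at day 6, and it fell by 0.199 (SE 0.0541, adjusted p = 0.0311, limma). The farthest (chrX:94177663-94178020) had 0.692 and 0.70, then 0.348 and 0.478, and it fell by 0.283 (SE 0.0630, adjusted p = 0.0224, limma). The peak between them (chrX:94183772-94184243) had 0.519 and 0.714, then 0.250 and 0.444, with the same direction in both libraries but a larger spread (change -0.269 ± 0.0898, adjusted p = 0.0529, limma). In all 3 the day 6 values were below the day 0 values, and the retained shares of 56.3% to 66.6% were below the median of 68.6% over all OCT4 peaks. Day 0 ratios of these peaks were above 0.5 in both libraries. The Eif2s3x promoter was itself an OCT4 consensus peak (chrX:94212496-94212869) but had no allelic ratio, so its retention could not be measured.

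Kdm6a, also called Utx, encodes a demethylase of histone H3 lysine 27. The OCT4 peak at its promoter (chrX:18161727-18162867, in the 5′ UTR) had 0.558 and 0.536 at day 0, then 0.408 and 0.373 at day 6, and its retained share was 71.4%. The days did not overlap, and the change of -0.157 ± 0.0539 did not pass the test (adjusted p = 0.0571, limma; unadjusted p = 0.0221). The second OCT4 peak, in an intron (chrX:18180532-18180953), had 0.381 and 0.368, then 0.429 and 0.327, with a retained share of 101%. The YY1 peak, also intronic (chrX:18163997-18164355), had 0.488 and 0.472 at day 0, then 0.494 and 0.490 at day 6. Both day 6 values were above both day 0 values, which was so at 4.27% of all YY1 peaks, but the change of 0.0121 ± 0.0312 did not pass the test (adjusted p = 0.796, limma). Its 95% interval ran from -0.0651 to 0.0893 and so lay above the median YY1 change of -0.0987. This peak also held an octamer, as did 5 of the 211 YY1 peaks (2.37%).

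Kdm5c encodes a demethylase of histone H3 lysine 4. Its promoter had an OCT4 peak (chrX:152232788-152233667) and, inside that, a YY1 peak (chrX:152233055-152233625), both annotated in an exon of a non-coding transcript at the start of the gene. OCT4 had 0.583 and 0.442 at day 0, then 0.455 and 0.471 at day 6, overlapping days with a retained share of 90.2%. YY1 had 0.546 and 0.492, then 0.458 and 0.448. Both day 6 YY1 values were lower, and the change of -0.0664 ± 0.0348, the largest decrease of the 6 YY1 peaks, did not pass the test (adjusted p = 0.172, limma). The OCT4 peaks 7.8 and 10.0 kb downstream had retained shares of 77.6% and 82.4%. In the first (chrX:152286929-152287724) the ratios were 0.431 and 0.435, then 0.396 and 0.276. In the second (chrX:152289112-152289631), the peak with both octamers, they were 0.536 and 0.588, then 0.418 and 0.507. Each was lower in both day 6 libraries, with adjusted limma p of 0.229 and 0.205.

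Mid1 encodes a ubiquitin ligase that binds microtubules, and the gene spans the pseudoautosomal boundary in laboratory mice. Of its 5 OCT4 peaks, 3 had high ratios at day 0, and the mean over all 5 was 0.639, close to the 0.636 of Eif2s3x. The peaks in an intron (chrX:169844084-169844790) and at alternative internal starts of the gene (chrX:169879444-169880459 and chrX:169927047-169927641) had mean day 0 ratios of 0.747, 0.778 and 0.748. At day 6 the means were 0.755, 0.765 and 0.846. In the last of these, in a coding exon, the ratios were 0.731 and 0.766, then 0.867 and 0.825. Both day 6 values were above both day 0 values, as at 1.39% of OCT4 peaks, but the change of 0.0971 ± 0.0547 did not pass the test (adjusted p = 0.182, limma). This start is a predicted RefSeq transcript, and a region called in the input libraries lay 1072 bp away. Nearer the 3′ end, the OCT4 peak in an intron (chrX:169986901-169987513) had 0.359 and 0.442, then 0.395 and 0.359. The YY1 peak that overlaps it (chrX:169985987-169987283) had 0.781 and 0.813, then 0.795 and 0.781. Neither factor changed beyond its spread there, with retained shares of 94.1% and 98.9%.

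Downstream of Mid1, the Erdr1 promoter, about 19 kb beyond the gene's end, had a YY1 peak (chrX:170009489-170010278) with 0.733 and 0.743 at day 0, then 0.729 and 0.736 at day 6. The OCT4 peak beside it (chrX:170008855-170009644) had 0.462 and 0.582, then 0.545 and 0.479. Retained shares were 99.3% and 98.2%. The YY1 peak overlaps a region called in the input libraries, and the OCT4 peak lies 383 bp from one. All 9 input regions within 20 kb of the 10 genes were in the Mid1 window (71 on the X), and the part of input signal in the Mid1 ratios was not tested. Without the peaks within 5 kb of an input region, a criterion chosen after the values were seen, 3 OCT4 peaks fell and the differences between escape gene peaks and other peaks grew by 0.0795 for OCT4 and 0.0873 for YY1.

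Slc25a5 encodes an adenine nucleotide carrier of the inner mitochondrial membrane. Its promoter OCT4 peak (chrX:36795348-36796731) had 0.255 and 0.436 at day 0, then 0.214 and 0.250 at day 6. The day 0 replicates differed more than the means of the days did, and the change of -0.113 ± 0.0717 did not pass the test (adjusted p = 0.228, limma). At day 6 it had the lowest ratios of the 9 genes measured, and its day 0 ratio was also the lowest mean.

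Car5b encodes a mitochondrial carbonic anhydrase. No peak with a ratio lay in the gene, and the single OCT4 peak in its window (chrX:163958343-163959124) was at the shared promoter region of Zrsr2, a splicing factor gene, and the predicted gene Gm38561, 17.7 kb downstream. It had 0.452 and 0.444 at day 0, then 0.345 and 0.475 at day 6, so the day 6 replicates lay on both sides of the day 0 values (change -0.0381 ± 0.0630, adjusted p = 0.635, limma).

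At Pbdc1, the OCT4 peak with a ratio was 4.2 kb downstream, in a coding exon of Magee1 (chrX:105121333-105121624). It had 0.667 and 0.500, then 0.286 and 0.412, and it fell by 0.235 (SE 0.0762, adjusted p = 0.0491, limma), a call that was lost on a logit scale (adjusted p = 0.0737), with another prior (adjusted p = 0.0540) and when single libraries were left out. The consensus peak at the Pbdc1 promoter (chrX:105079910-105080017), which is also the nearest to the non-coding gene 5530601H04Rik, had no ratio.

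At 1810030O07Rik, a little characterised protein-coding gene, the promoter peak (chrX:12673185-12673755) had 0.567 and 0.407 at day 0, then 0.375 and 0.480 at day 6, overlapping days with a retained share of 87.8%. The peak 2.2 kb downstream, at the promoter of Gm4984 (chrX:12651945-12652652), had 0.525 and 0.444, then 0.40 and 0.282, and both day 6 values were lower (retained share 70.4%, adjusted p = 0.114, limma).

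Taken by gene, as the mean over its OCT4 peaks, Mid1 had the highest retained share (102%), followed by Ddx3x (91.9%), Car5b (91.5%), Kdm5c (83.7%), Kdm6a (83.4%), 1810030O07Rik (79.1%), Slc25a5 (67.2%), Eif2s3x (60.6%) and Pbdc1 (59.8%). At day 6 the Mid1 mean was 0.665 and 0.637 in the libraries, above every other gene, and Slc25a5 with 0.214 and 0.250 was below every other gene. The other 7 genes lay between 0.286 and 0.475, and the order among them was not tested. For YY1 the order was Kdm6a (103%), Mid1 (99.1%), Ddx3x (92.6%) and Kdm5c (87.2%). The day 6 means of Ddx3x (0.470 and 0.468), Kdm6a (0.494 and 0.490) and Kdm5c (0.458 and 0.448) lay within 0.05 of each other.

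The promoter peaks were next set against the distal peaks. At escape genes the 9 OCT4 promoter peaks had mean ratios of 0.539 and 0.530 at day 0, then 0.473 and 0.482 at day 6. The 12 distal peaks had 0.536 and 0.536, then 0.420 and 0.439. Promoter and distal means were level at day 0, and at day 6 promoters were higher by 0.0531 and 0.0423 in the libraries. These levels rest on Mid1. Without it, promoters were lower than distal peaks at day 0 (differences of -0.0547 and -0.0651), and at day 6 the differences were 0.00998 and -0.0231, so that it grew by 0.0533 but ended near level. The promoter minus distal difference grew by 0.0490, which did not overlap between days (exact permutation p = 0.333, two-sided, the smallest possible). Over the other 171 promoter and 814 distal OCT4 peaks of the X it grew by 0.0410, so the gap at escape genes was close to that of the chromosome. The starts chosen mattered. With peaks that overlap a start itself, or with curated RefSeq starts only (chosen after the values were seen), the growth was 0.0141. The only OCT4 promoter peak here that does not overlap a start is a Mid1 peak (chrX:169927047-169927641). It lies 84 bp from a predicted start and its change was 0.0971, so the first of these rules moved that peak alone.

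All 3 OCT4 peaks that fell were among the 12 distal ones (25.0%), against 38.3% of all distal OCT4 peaks and 316 of the 352 that fell over the X. Of the 9 promoter peaks, 0 fell, where 36 of all 180 OCT4 promoter peaks did, and 6 had a retained share of 80% or more, against 43.9% of all promoter peaks. Of the 12 distal peaks, 6 did, against 27.4% of all distal peaks, and 3 of these 6 were at Mid1. Without Mid1, 4 of 7 promoter and 3 of 9 distal OCT4 peaks reached 80%. The 4 YY1 promoter peaks had means of 0.561 and 0.574, then 0.532 and 0.530, and the 2 distal ones, at Kdm6a and Mid1, had 0.635 and 0.643, then 0.645 and 0.636. The YY1 difference thus moved the other way, by -0.0383, and over the other 77 promoter and 128 distal YY1 peaks it moved by -0.0246. With 4 peaks against 2 this is a description of those peaks.

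**Figure D3:**
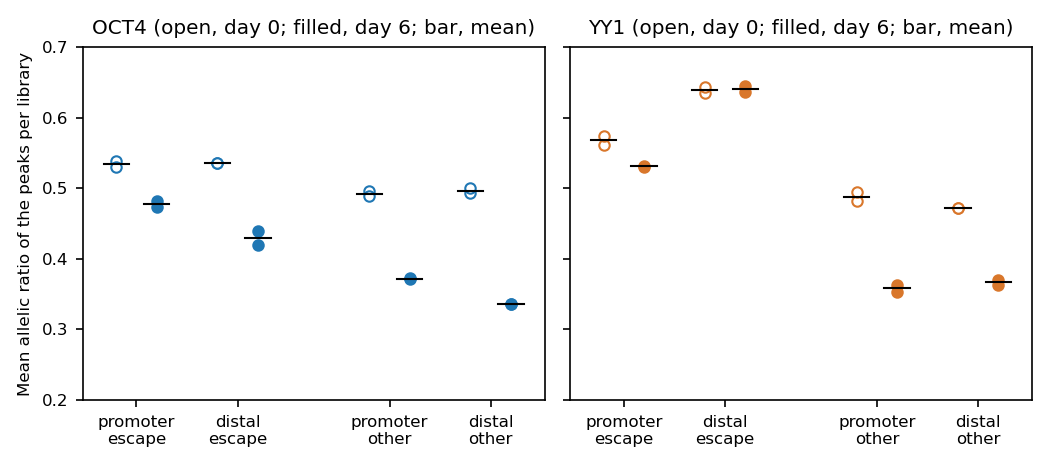
Mean allelic ratio (y axis) of promoter and distal peaks in each library, for escape genes and for all other peaks of the X; open circles are day 0 libraries, filled circles day 6 libraries and bars their means. At day 6 OCT4 promoters are higher than distal peaks at escape genes (0.477 against 0.429) and elsewhere (0.372 against 0.336), though without Mid1 the escape gene means are 0.383 and 0.390.

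How far retention reached was described by distance from the gene body, without a test. Over the whole X, 30.3% of OCT4 peaks had a retained share of 80% or more. Inside the escape genes, 8 of 10 OCT4 peaks did, with a median of 92.9%. From the edge to 20 kb it was 4 of 11 with a median of 70.4%, and from 20 to 50 kb 1 of 10 with a median of 63.3%. Those flanking medians were near the 68.2% of the 944 OCT4 peaks more than 200 kb away, of which 273 reached 80%. From 50 to 100 kb the share was high again, with 11 of 15 peaks and a median of 89.0%, and from 100 to 200 kb it was 8 of 16 with a median of 77.5%. Of the 10 peaks inside genes 7 were promoter peaks, and of the 11 just outside 2 were, so position and kind of peak cannot be told apart here. Without Mid1, 4 of 6 peaks inside and 3 of 10 up to 20 kb outside reached 80%, the latter near the 30.3% of all OCT4 peaks.

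Beyond 20 kb, promoter and distal OCT4 peaks had different shares. Of 8 promoter peaks between 20 and 200 kb away, 7 had a retained share of 80% or more (43.9% of all OCT4 promoter peaks), and 0 fell (36 of all 180 did). These were Siah1b (90.6%) and the Ap1s2 promoter (94.8%) beside Car5b, Nyx (97.7%) and the predicted gene Gm34661 (85.4%) downstream of Ddx3x, the shared region of Med14 and Gm14634 (97.0%) and Atp6ap2 (80.3%) beside 1810030O07Rik, and the Apoo region (105%) upstream of Eif2s3x. The exception was Klhl15, 21.3 kb upstream of Eif2s3x and the promoter nearest to the edge of the windows, with OCT4 ratios of 0.358 and 0.319, then 0.152 and 0.238, and a retained share of 57.6%. Of the 33 distal OCT4 peaks in the same range, 13 reached 80% (27.4% of all distal peaks) and 11 fell (33.3%, against 38.3% of all).

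At Kdm6a and Slc25a5 the promoter peak itself was under 80%, at 71.4% and 67.2%. Outside the gene bodies, the first OCT4 peak under 80% was 0.4 kb from Eif2s3x downstream, 1.9 kb from Ddx3x downstream, 2.2 kb from 1810030O07Rik downstream, 4.2 kb from Pbdc1 downstream and 7.8 kb from Kdm5c downstream. On the other sides it was farther out, at 37.2 kb for Ddx3x (chrX:13240657-13243312, in 2010308F09Rik, retained share 55.8%) and at 81.9 kb for Kdm5c (chrX:152150849-152151283, in an intron of Iqsec2, 44.6%). The Iqsec2 peak was the only OCT4 peak within 200 kb on that side of Kdm5c, so its distance does not show how far retention reached. The nearest peak outside Slc25a5 was 31.5 kb upstream (chrX:36763578-36764118, in an intron of Slc25a43, 49.6%). Each of these 3 fell, with adjusted limma p of 0.0252, 0.0163 and 0.0279. Outside Kdm6a the nearest under 80% was 80.3 kb downstream with 79.1%, and at Car5b it was 48.8 kb downstream, in the 3′ UTR of Ap1s2, with 70.1%. The Kdm6a peak was likewise the only OCT4 peak within 200 kb on its side. The peak in Magee1 beyond Pbdc1 is also the nearest to 5530601H04Rik on its upstream side, and on its downstream side the nearest, at 84.5 kb, fell (35.5%, adjusted p = 0.0163, limma). Upstream of 1810030O07Rik no OCT4 peak with a ratio lay nearer than 84.9 kb, so retention closer to the gene could not be read. From there to 94.4 kb, 4 peaks around Med14 had retained shares of 90.4% to 97.0%. The first under 80% was at 160.8 kb (55.5%, adjusted p = 0.0279, limma). Beyond it the shares were 90.8% at 165.8 kb, 81.3% at 184.1 kb and 49.7% at 191.6 kb. At Mid1 no OCT4 peak within 200 kb was under 80%, but outside the gene only 1 lay upstream and 1 downstream.

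YY1 peaks near these genes were few. The 5 inside the genes and the one at Erdr1 had retained shares of at least 87.2%. Between 20 and 200 kb there were 7, of which 2 reached 80% (45.0% of all YY1 peaks did). These 2 were downstream of Mid1 (101% at 27.8 kb and 83.2% at 29.8 kb), and both overlap regions called in the input libraries. The other 5 had retained shares of 58.0% to 77.5%. The Klhl15 promoter, 21.8 kb from Eif2s3x, had YY1 ratios of 0.362 and 0.268, then 0.225 and 0.216. At Gm34661, 53.1 kb from Ddx3x, they were 0.481 and 0.487, then 0.337 and 0.350, and YY1 fell there (change -0.141 ± 0.0312, adjusted p = 0.0190, limma), with a retained share of 70.9%. The OCT4 peak that overlaps it had 0.487 and 0.450, then 0.50 and 0.30, and the difference between the factors' changes of -0.0726 ± 0.0915 did not pass the test (adjusted p = 0.689, limma interaction). YY1 also fell 99.6 kb from Car5b (73.7%, adjusted p = 0.0443, limma) and 184.1 kb from 1810030O07Rik (58.0%, adjusted p = 0.0120, limma).

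**Figure D4:**
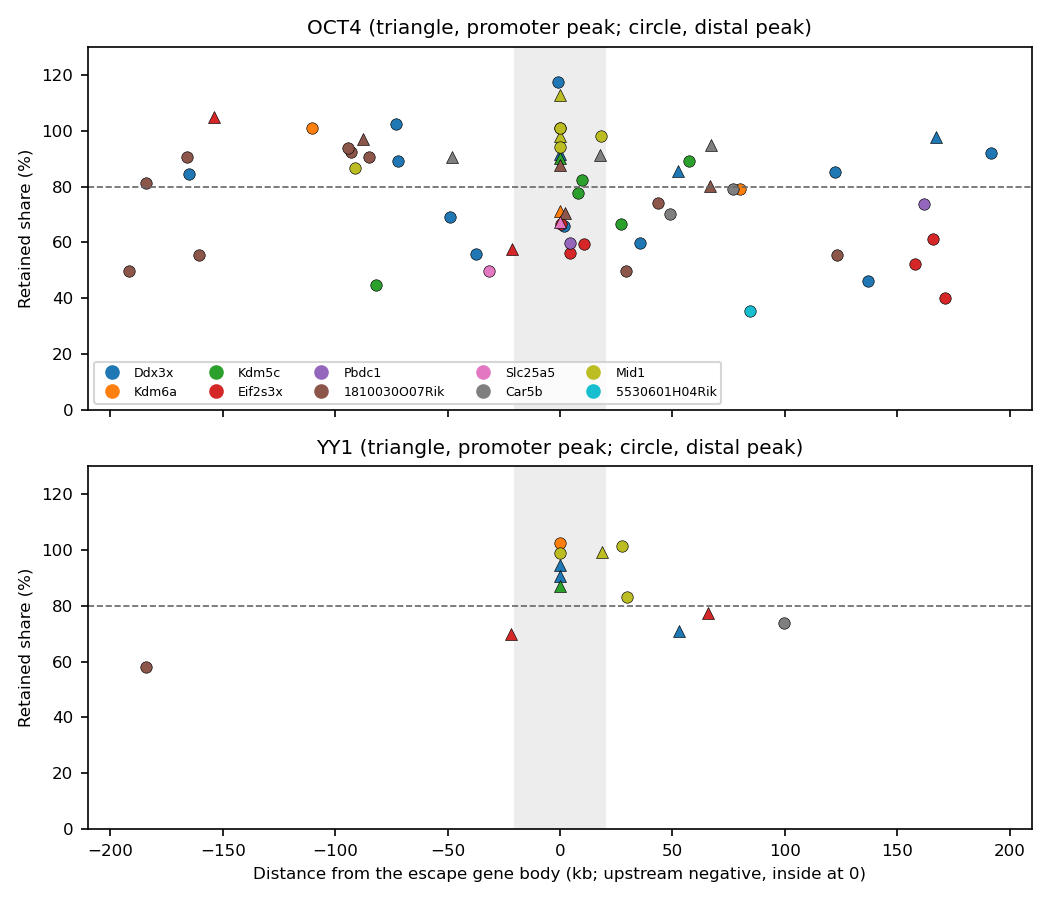
Retained share (y axis, day 6 mean as a percentage of the day 0 mean) of OCT4 and YY1 peaks against distance from the escape gene body in kb (x axis, upstream negative, inside at 0), coloured by gene, with triangles for promoter and circles for distal peaks. The dashed line is 80% and the grey band the 20 kb windows. Of OCT4 peaks, 1 of 10 from 20 to 50 kb lies above the line and 8 of 10 inside the genes do (30.3% of all).

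Overlapping OCT4 and YY1 peaks allowed the factors to be compared at neighbouring positions. There were 69 such pairs on the X and 5 at escape genes, namely the Ddx3x promoter with each of its YY1 peaks, the Kdm5c promoter, the Mid1 intron and Erdr1. The change of YY1 minus the change of OCT4 was 0.0119 ± 0.0771 and -0.0106 ± 0.0743 at Ddx3x, -0.0163 ± 0.0784 at Kdm5c, 0.0144 ± 0.0665 at Mid1 and 0.00397 ± 0.0750 at Erdr1 (SE). None of the 5 passed the interaction test in limma, with adjusted p from 0.920 to 0.973, and 0 had an unadjusted p under 0.05. Over all 69 pairs, 0 passed after adjustment and 6 at an unadjusted p (8.7%). The standard errors are as large as many changes seen on the X, so a difference of that size would not have been detectable in this fit. The fit treated all libraries as separate, although the study's methods state that both factors came from shared chromatin extracts.

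At day 0, however, the paired peaks near Mid1 differed in level. The YY1 ratio exceeded the OCT4 ratio by 0.397 in the Mid1 intron and by 0.216 at Erdr1, which ranked 2 and 3 among the gaps of the 69 pairs, where the median gap was 0.0617. The gaps at Ddx3x and Kdm5c were 0.0431, 0.0538 and 0.00666. The 2 Mid1 peaks share 383 bp of a YY1 peak of 1297 bp, so the ratios of the factors were not read over the same bases.

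**Figure D5:**
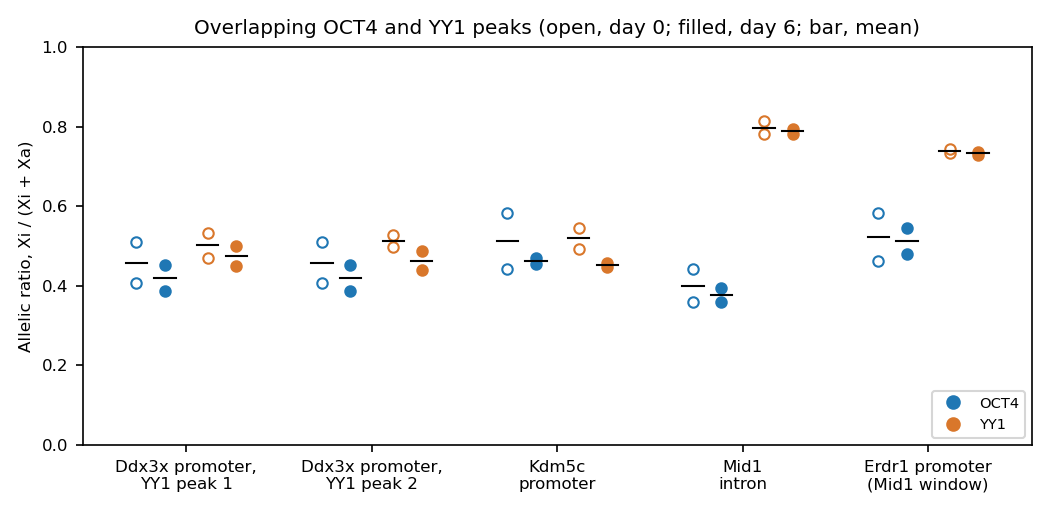
Allelic ratio (y axis) of the 5 pairs of overlapping OCT4 and YY1 peaks at escape genes, open circles for day 0 and filled circles for day 6 libraries, bars for their means. The factors lie close together at Ddx3x and Kdm5c, and YY1 lies above OCT4 on both days in the Mid1 intron and at Erdr1.

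Lists of other genes gave a frame for these values. Peaks in or within 20 kb of 9 other genes known to escape in some or all tissues (Xist, Jpx, Ftx, Firre, Utp14a, Shroom4, Usp9x, Bgn and Yipf6) included 24 OCT4 peaks. Of these, 10 fell (35.0% of all OCT4 peaks did) and 9 had a retained share of at least 80% (30.3% of all). Their median change was -0.152, near the -0.149 of all OCT4 peaks. Of the 10 YY1 peaks of these 9 genes 2 fell (42.2% of all YY1 peaks did) and 7 reached 80% (45.0% of all). The median change of the 10 was -0.0435, against -0.0987 over all YY1 peaks. All 5 at Firre were among the 7, and 0 of 3 at Xist were. Among the 9 genes, Usp9x, a deubiquitinase gene that neighbours Ddx3x, had 3 OCT4 peaks of which 0 fell (median change -0.0618). Its promoter YY1 peak had 0.490 and 0.529 at day 0, then 0.476 and 0.488 at day 6. At the others OCT4 fell at 4 of 6 peaks of Ftx, 3 of 6 of Xist and 1 of 2 of Utp14a. It fell at the only peaks of Shroom4 and Yipf6 and at 0 of 5 of Firre. Peaks of 7 genes generally subject to inactivation (Pgk1, Hprt, G6pdx, Atrx, Pdha1, Hcfc1 and Rlim) included 15 OCT4 peaks. Of these, 7 fell (35.0% of all OCT4 peaks did) and 2 reached 80% (30.3% of all), with a median change of -0.188. The 7 genes had 6 YY1 peaks, all at promoters, of which 4 fell (45.7% of all YY1 promoter peaks did) and 1 reached 80% (38.3% of those). The median change of the 6 was -0.163, against -0.131 over all YY1 promoter peaks.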

How the data were processed

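The 8 libraries of OCT4 and YY1 ChIP-seq with allelic values were assigned to groups from their labels, and for YY1 at day 0, whose labels give no antibody, from their titles. Columns of the OCT4 table were matched by factor, day and replicate, since a clone is named there that is absent from the labels. All value columns were matched (0 left over). The 4 inputs have no allelic values, and only the regions called in them were used.

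Deposited values are fractions (0 to 1), the allelic ratios that the authors computed as Xi/(Xi + Xa) from allele-assigned fragments per peak. Per its methods, the study used Bowtie2 (2.3.5.1 in the submitters' processing notes, which also name deepTools 3.5.0) for alignment to mm10 with strain positions masked, Picard to remove duplicates and SNPsplit to sort reads by allele. MACS2 called the peaks, input regions were taken out, and featureCounts gave the fragments per allele. The authors kept peaks with more than 10 allele-assigned fragments in most samples and a biallelic ratio at day 0, so few strongly biased peaks remain and depth per peak is unknown. Ratios say nothing of total occupancy.

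Peaks were assigned to the 10 genes by position (GRCm38.p6, RefSeq, coordinates from 1), and a peak within 500 bp of the start of any RefSeq transcript, predicted ones included, was a promoter peak. For each factor, limma 3.58.1 (R 4.3.3, lmFit and eBayes) compared day 6 with day 0 at every peak of its table, 2 libraries against 2, two-sided, with Benjamini-Hochberg adjustment over the table and a threshold of 0.05. The fit was tested on simulated data. Overlapping OCT4 and YY1 peaks (at least 1 bp) were compared by the interaction of factor and day over all pairs. Per the study's methods, both factors were precipitated from shared chromatin extracts. The interaction fit did not model this and treated the 8 libraries as separate. Single values per library were compared with an exact permutation test. Named peaks were all peaks of the 10 genes and, for each gene and side within 200 kb, the nearest peak beyond 20 kb and the nearest with a retained share under 80%. The promoters between 20 and 200 kb, the YY1 peaks in that range and the genes given singly from the list of other escape genes were named after their values were seen. The genes, lists and tests were chosen with earlier results of these data known, so they are not independent of them. One gene of the list subject to inactivation is not reported here and was left out of its counts. Equal replicate numbers were not shown to mark one culture. Alternatives were a replicate block, a logit scale with a floor of 0.01, a trended robust prior, day 0 ratios between 0.3 and 0.7, other windows, thresholds, promoter rules and overlaps, and leaving out each library. Added after seeing the data were leaving out peaks within 5 kb of an input region and curated starts only. Python 3.11.15 with pandas 2.3.3, numpy 2.4.6, scipy 1.17.1 and matplotlib 3.10.9 was used.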

Additional observations from a re-analysis of the deposited data

Results flagged for a closer look

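At Kdm6a the mean ratios of the factors moved in opposite directions in every library. The mean ratio of its OCT4 peaks was lower in both day 6 libraries than in both day 0 libraries (mean change -0.0767, 2 peaks), and its YY1 peak was higher in both (0.0121, 1 peak). The OCT4 mean rests on the promoter peak (-0.157), since the intron peak changed by 0.00315 with overlapping days, and the YY1 change is within its SE of 0.0312. The difference was not tested, since no OCT4 peak overlaps the YY1 peak. Neither an OCT4 nor a YY1 peak of the gene passed the limma test after adjustment.

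Consensus OCT4 peaks without an allelic ratio lay in the windows of several genes in which no input region was called. There were 5 at Slc25a5, 2 at Ddx3x, 1 at the Eif2s3x promoter and 1 at the Pbdc1 promoter. In all, 39 consensus OCT4 peaks lay in the windows, 21 of them with a ratio (53.8%, against 47.0% of the 2139 consensus OCT4 peaks of the X). The 9 such peaks of the Mid1 window stood beside 9 input regions.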

How the results depend on the processing

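The count of OCT4 peaks at escape genes that fell depended on the settings. It was 3 as reported, 1 on a logit scale, 0 at a threshold of 0.01, 5 with windows of 50 kb, and between 0 and 3 when a library was left out. It was 0 without day 0 replicate 1 and without day 0 replicate 2, settings that also left 1 and 0 calls over the whole OCT4 table. Without day 6 replicate 1 the call at Pbdc1 was lost (adjusted p = 0.134, limma), and without day 6 replicate 2 that at the nearest Eif2s3x peak (adjusted p = 0.0769) was lost and that at the middle one was gained (adjusted p = 0.0185). On the logit scale the nearest Eif2s3x peak (adjusted p = 0.0512) and Pbdc1 (0.0737) lost their calls, and with the trended robust prior Pbdc1 did (0.0540). The YY1 count was 0 under every alternative run, with the count at an unadjusted p also 0 as reported.

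With a replicate block, 2 OCT4 and 0 YY1 peaks fell. The OCT4 peak 10.7 kb from Eif2s3x kept its call and the middle one gained it (adjusted p = 0.0309, limma), while the nearest (adjusted p = 0.0514) and Pbdc1 (adjusted p = 0.0702) lost theirs. With the block the calls over the tables went from 352 to 274 for OCT4 and from 89 to 97 for YY1. Deviations of same-numbered libraries from their day means were not correlated over peaks (r = -0.0217 for OCT4 and 0.0315 for YY1), so the numbers were not taken as pairs.

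Leaving out a library turned the sign of changes near 0, none of which had passed the test. The ranges were -0.139 to 0.0201 at the 1810030O07Rik promoter, -0.121 to 0.0207 at the Kdm5c promoter, -0.0906 to 0.0138 at the Ddx3x promoter, -0.0478 to 0.0541 at the Kdm6a intron, -0.103 to 0.0270 in the Car5b window, and -0.0578 to 0.0736, -0.0400 to 0.0135, -0.0650 to 0.0179 and -0.0695 to 0.0508 at OCT4 peaks of Mid1. For YY1 they were -0.0583 to 0.00530 at the Ddx3x 5′ UTR, -0.0251 to 0.00682 at the Mid1 intron and -0.0323 to 0.00179 for the median change. Differences between the factors ran from -0.0403 to 0.0641 and from -0.0628 to 0.0416 at Ddx3x, from -0.0871 to 0.0544 at Kdm5c, from -0.0270 to 0.0559 at Mid1 and from -0.0562 to 0.0641 at Erdr1. The cause was not tested.

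The gap between escape gene peaks and other peaks kept its direction under every alternative run, from 0.0436 to 0.0969 for OCT4 and from 0.0746 to 0.0948 for YY1, as did the promoter against distal difference, from 0.0141 to 0.0654 for OCT4 and from -0.0594 to -0.0262 for YY1. Of the 21 OCT4 peaks, 15 reached a retained share of 70% and 10 reached 90%. At the limit of 80%, 10 did in replicate 1 alone and 12 in replicate 2 alone. All 6 YY1 peaks reached 70%, and also 80% in either replicate alone, and 5 reached 90%. By distance, the OCT4 count from 20 to 50 kb went from 1 to 3 at a limit of 70% and to 2 in replicate 1 alone, and that from 50 to 100 kb from 11 to 6 at a limit of 90%. From 100 to 200 kb it fell from 8 of 16 to 5 at a limit of 90% and to 4 in replicate 1 alone. The YY1 count from 20 to 50 kb went from 2 to 1 at a limit of 90% or in replicate 1 alone, and to 3 in replicate 2 alone. That from 50 to 100 kb went from 0 to 3 at a limit of 70% and to 1 in either replicate alone.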
